A study of Mus musculus with 2 samples.

Results

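The IL-6 family cytokines and their receptors were examined in the control RNA-Seq of macrophages with and without tristetraprolin (TTP), an RNA-binding protein that destabilizes mRNAs. The genes were chosen by name, as the rows of the deposited expression table with the symbols *Il6*, *Il6ra*, *Il6st*, *Lif*, *Lifr*, *Osm*, *Osmr* and *Clcf1*, which gave 8 of the 37451 genes in the table. The WT library came from bone marrow-derived macrophages (BMDMs) of C57BL/6 littermates, and the ΔM library from C57BL/6 TTP fl/fl LysMCre mice. LysMCre is a Cre recombinase driven by the lysozyme M gene, which directs the deletion to myeloid cells. Bone marrow was taken from mice 7 to 9 weeks old, both cultures received 4-thiouridine (4sU) at 100 μM over 16 h and LPS at 10 ng/ml over 6 h, so no unstimulated or unlabeled cells were compared here. The time of 6 h is that of the treatment labels, whereas the sample titles carry the tag LPS7, which the labels do not explain. There is 1 library per genotype. Each difference therefore lacks a replicate check and a p-value, and the intervals given cover counting error only.

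Cytokines of the IL-6 family share the signal-transducing receptor gp130, the product of *Il6st*. IL-6 first binds its own receptor IL-6Rα (*Il6ra*), and the pair then engages gp130, whereas leukemia inhibitory factor (*Lif*), oncostatin M (*Osm*) and cardiotrophin-like cytokine factor 1 (*Clcf1*) pair gp130 with the LIF receptor (*Lifr*) or, for oncostatin M, with its specific receptor (*Osmr*). These receptor complexes activate Janus kinases and the transcription factor STAT3. Macrophages exposed to LPS are known as a source of IL-6, and the *Il6* mRNA is known to be short-lived and to carry AU-rich elements of the kind that TTP binds.

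One AU-rich motif of the 3′ UTR, a heptamer, was found in the 4 ligand genes examined and in none of the 4 receptor genes examined. In the longest annotated 3′ UTR of each gene (GENCODE M1 annotation of NCBIM37, the same assembly as mm9), the sense strand was searched for the heptamer TATTTAT and for the pentamer ATTTA, which also lies inside every heptamer. All 4 ligand genes held the heptamer, and 0 of the 4 receptor genes did. Over 19982 protein-coding genes with an annotated 3′ UTR, 23.9% held it. *Il6* had 1 heptamer in 420 nt, *Osm* 3 in 1017 nt, *Clcf1* 4 in 922 nt and *Lif* 5 in 3180 nt. Among genes with a 3′ UTR of like length, within 20%, the heptamer was present in 9.58% for the length of *Il6*, 24.2% for *Osm*, 21.4% for *Clcf1* and 52.3% for *Lif*. The receptor genes lacked it although their 3′ UTRs are 1794 to 6320 nt long, lengths at which 36.3% to 69.3% of genes hold it. These counts describe letters in the annotation and do not show binding.

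The windows below give the heptamers of the 3 ligands with more than 3 fragments in either library, each with 10 nt on either side, 5′ to 3′ on the mRNA strand, with the heptamer in capitals and its position counted in nt from the start of the 3′ UTR. They are shown because they are the only such motifs in these 3′ UTRs. The *Il6* window spans chr5:30346269-30346295, the 3 *Osm* windows chr11:4140589-4140615, chr11:4140943-4140969 and chr11:4140956-4140982, and the *Clcf1* windows chr19:4223395-4223421, chr19:4223416-4223442 and chr19:4223430-4223456, all on the plus strand of mm9. In *Clcf1* the first heptamer overlaps a further one that starts 4 nt downstream and is not shown separately.
Il6 heptamer at nt 191: ttatgattgaTATTTATtatttttatg
Osm heptamer at nt 587: caagacacttTATTTATccgaatgtca
Osm heptamer at nt 941: atccgttttaTATTTATaaggcctatt
Osm heptamer at nt 954: ttataaggccTATTTATaatgtatatt
Clcf1 heptamer at nt 837: gttgtattaaTATTTATttatttggag
Clcf1 heptamer at nt 858: ttggagatgtTATTTATtagatgatat
Clcf1 heptamer at nt 872: tattagatgaTATTTATtgcagaattt

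**Figure D1:**
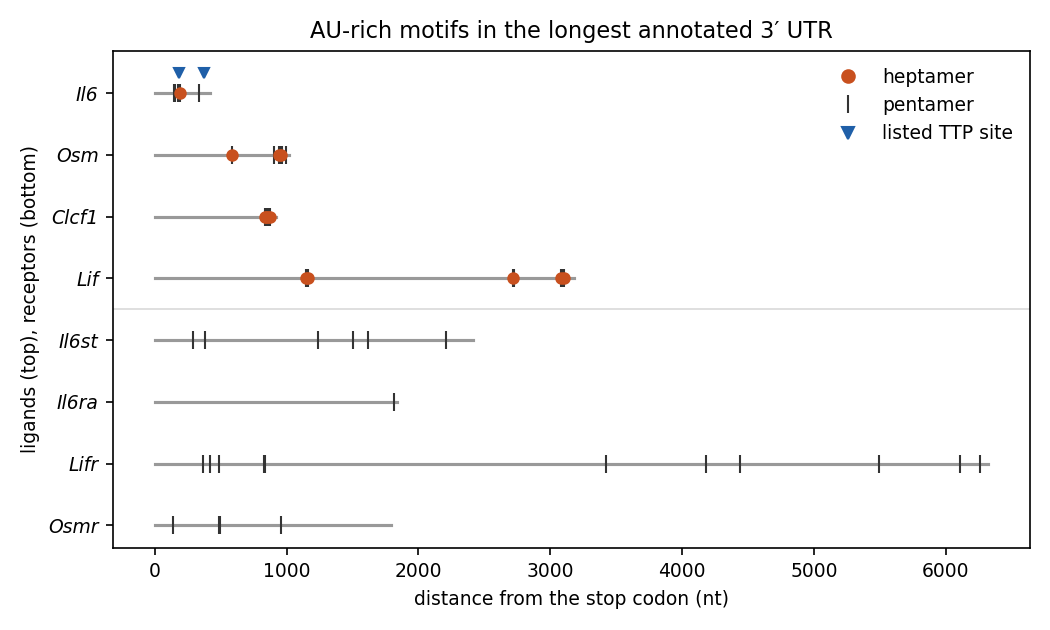
Positions of the heptamer TATTTAT (circles) and the pentamer ATTTA (ticks) along the longest annotated 3′ UTR of each gene (grey line), in nt from the stop codon, with the TTP binding sites that the study lists for exons (triangles). Circles occur on the 4 ligand genes and on none of the 4 receptor genes. A missing triangle on a gene of low level does not show a lack of binding.

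The pentamer was less selective, since all 8 genes held at least 1. *Il6* was the densest, with 5 pentamers in 420 nt or 11.9 per kb, and 99.2% of the genes with a 3′ UTR of like length held fewer. *Osm* had 6 (5.90 per kb), more than 95.7% of genes of like length. At the other end *Il6ra* had a single pentamer in 1837 nt, where the median gene of like length had 3. The other receptor genes held more than that median, *Il6st* with 6 against 4, *Osmr* with 4 against 3 and *Lifr* with 11 against 10. So did the ligand genes *Lif*, with 7 against 5, and *Clcf1*, with 4 against 1. *Lif*, at 2.20 per kb, was less dense than *Il6st* at 2.48 and *Osmr* at 2.23. The 3′ UTR of *Il6* was also the richest of the 8 in A and T, at 75.0%, and those of the other genes ranged from 47.6% in *Lif* to 58.1% in *Osmr*.

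Of the 8 genes, *Il6* and *Il6st* have entries in the list of TTP binding sites read here, which the study obtained from PAR-iCLIP, a crosslinking method of single-nucleotide resolution, at 6 h of LPS. The list keeps only sites that reach a minimum number of crosslinks and occur in all replicates. That minimum is not scaled to expression, so a missing entry for a gene of low level does not show a lack of binding. The letters of all 4 sites matched NCBIM37 at their stated positions. Both *Il6* sites fall within the 3′ UTR, in exon 5 of 5, at chr5:30346461-30346467 and chr5:30346268-30346271 on the plus strand. The first starts 373 nt after the stop codon and overlaps no pentamer, the nearest of which starts 37 nt away. The second starts 180 nt after the stop codon and overlaps a pentamer. Neither *Il6* site overlaps the only heptamer of this 3′ UTR, which starts at nt 191. The *Il6st* sites lie in intron 6 of a gene with 15 exons, at chr13:113283493-113283515 and chr13:113283525-113283527 on the plus strand. The longer of them spans 23 nt and holds 4 pentamers and 2 heptamers, counted with overlap. Sites are in capitals in the lines that follow, shown because the ligand has its sites in the 3′ UTR and the shared receptor in an intron.
Il6 site, 3′ UTR, distal: tgtgatgtatTTTTATAatgtttagac
Il6 site, 3′ UTR, proximal: tttaagttaaTTTAtgattgatat
Il6st site, intron 6: catTCATTTATTTATTTATCTATTTAttt

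Expression was deposited as FPKM (mapped fragments scaled to exon length and library depth), which corrects for gene length and allows genes to be compared. The steps between low FPKMs gave a depth of about 36050000 fragments in WT and 31950000 in ΔM. The targeted gene *Zfp36*, which encodes TTP, had 65.3 FPKM in the WT library against 16.7 in ΔM, and the values do not show which part of the gene the remaining fragments come from. Macrophage markers were present, with 8 of 8 at 5.45 FPKM or more in WT and at 11.6 FPKM or more in ΔM. Their summed level was 4004 FPKM in WT and 2872 in ΔM, and *Lyz2*, the lysozyme M gene itself, accounted for most of the gap, at 2481 and 1356 FPKM. All 7 fibroblast markers were below 1 FPKM in both libraries, with a sum of 0.96 FPKM in WT and 0.59 in ΔM, and 1 of them, *Pdgfra*, was listed at 0 in WT. Of the 6 neutrophil markers *S100a8* alone exceeded 1 FPKM, at 50.7 in WT and 100 in ΔM, whereas *Ly6g*, *Elane* and *S100a9* were listed at 0 in both. The remaining markers, of T, B, mast, dendritic and endothelial cells, were below 1 FPKM in both libraries in 16 of 19 cases, the exceptions being *Lck*, *Cd4* and *Kdr*. In bulk RNA, fewer cells that express a gene and less RNA per cell cannot be told apart.

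*Il6* (ENSMUSG00000025746, chr5:30339701-30346508, plus strand, mm9 as for all positions) was the highest of the 8 genes in both libraries. Its level was 34.9 FPKM in WT (95% counting interval 32.8 to 37.0) and 49.3 FPKM in ΔM (46.7 to 51.9). These intervals rest on about 1121 and 1404 fragments and do not overlap. *Il6* was above 95.1% of all 22259 protein-coding genes in WT and above 96.5% in ΔM. It made up 98.6% of the summed FPKM of the 4 ligands in WT and 96.8% in ΔM. Relative to the receptor chains it needs, the *Il6* level was 15.1 times that of *Il6ra* and 9.55 times that of *Il6st* in WT, and 14.8 and 12.4 times in ΔM.

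The FPKM of *Il6* in ΔM was 1.41 times that in WT, with a counting interval of the ratio from 1.31 to 1.53. On the log2 scale after adding 1 FPKM to both values, the scale used for all log2 ratios of ΔM to WT here, the difference was 0.49. A smaller log2 ratio was found for 92.7% of the 8078 protein-coding genes whose mean over both libraries reached 1 FPKM, here called the genes tested for their ratio, although no statistical test was possible.

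*Osm* (ENSMUSG00000058755, chr11:4136423-4141029, plus strand), whose product oncostatin M acts on stromal and liver cells through gp130, was the low ligand whose counting intervals lay apart in the 2 libraries. Its level was 0.42 FPKM in WT (0.257 to 0.648) and 1.40 FPKM in ΔM (1.07 to 1.80). The intervals do not overlap, and the value in ΔM was 3.33 times that in WT, with a counting interval from 1.98 to 5.84. About 20.1 fragments in WT and 59.4 in ΔM stand behind these values, at the median length of the 2 annotated transcripts. With the shorter transcript of 773 nt the ratio had an interval from 1.48 to 7.91, and with the longer one of 2272 nt from 2.23 to 5.26. Because its mean was 0.91 FPKM, *Osm* did not pass the minimum of 1 FPKM, and its log2 ratio with the added 1 FPKM was 0.76.

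Low genes scatter widely, so *Osm* was set beside protein-coding genes with a mean of 0.5 to 2 FPKM, a range chosen after its value was seen. Among those 2653 genes, 8.48% were at least 2-fold higher in ΔM and 8.14% at least 2-fold lower, without a pseudocount. A ratio as large as that of *Osm* or larger was found in 62 of them (2.34%), *Osm* included.

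The ligand genes *Clcf1* and *Lif* were close to the limit of detection. *Clcf1* (ENSMUSG00000040663, chr19:4214238-4223490, plus strand), which encodes a ligand of the ciliary neurotrophic factor receptor complex, was at 0.07 FPKM in WT (0.0200 to 0.175) and 0.22 FPKM in ΔM (0.113 to 0.386). About 4.25 and 11.8 fragments stand behind these values, and the intervals overlap. It is the only one of the 8 genes that overlaps another annotated gene, an antisense miRNA gene. Its ratio of 3.14 had a counting interval from 1.03 to 14.4 at the median transcript length. With the shortest transcript only 1.14 and 3.17 fragments would stand behind the values, too few for an interval here. Both the presence and the size of a difference are therefore undetermined at this depth. *Lif* (ENSMUSG00000034394, chr11:4157560-4172517, plus strand), a cytokine best known for maintaining mouse embryonic stem cells, was at 0.01 FPKM in each library, about 1.30 and 1.15 fragments. A floor of 3 fragments corresponds to 0.0231 FPKM in WT and 0.0261 in ΔM, so *Lif* was below it in both and no ratio was formed. *Osm* and *Lif* are neighbors on chromosome 11, with 16530 nt and 0 annotated protein-coding genes between them, yet *Osm* lay clearly above its floor of 0.0627 FPKM in WT.

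**Figure D2:**
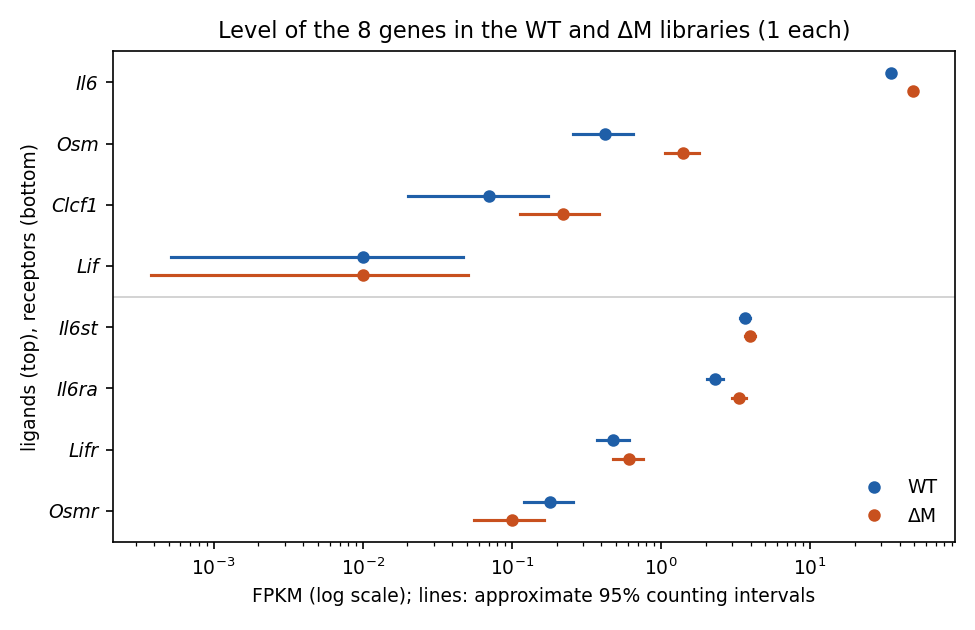
FPKM of the 8 genes on a logarithmic axis in the WT (blue) and ΔM (orange) libraries, 1 library each, with approximate 95% counting intervals as lines. *Il6* lies near 34.9 and 49.3 FPKM, *Il6st* and *Il6ra* between 2.31 and 3.97 FPKM, and *Lif* at 0.01 FPKM in both.

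Among the 4 receptor genes examined, those for the components of the IL-6 receptor had the highest levels. *Il6st* (ENSMUSG00000021756, chr13:113265216-113297068, plus strand) was at 3.65 FPKM in WT (3.38 to 3.94) and at 3.97 FPKM in ΔM (3.67 to 4.29), with overlapping intervals. The ratio of 1.09 had a counting interval from 0.975 to 1.22, so the values of this pair of libraries did not differ beyond counting error. The interval does not cover differences between cultures. *Il6ra* (ENSMUSG00000027947, chr3:89673246-89717084, minus strand) was at 2.31 FPKM in WT (2.04 to 2.61) and 3.34 FPKM in ΔM (2.99 to 3.72), and here the intervals did not overlap. Its ratio was 1.45 (1.23 to 1.71) and its log2 ratio 0.39, above that of 89.5% of these genes. The counting intervals of the ratios of *Il6* and *Il6ra* overlap.

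The receptor genes *Lifr* and *Osmr* were low. *Lifr* (ENSMUSG00000054263, chr15:7079559-7147489, plus strand) was at 0.48 FPKM in WT (0.373 to 0.608) and 0.61 FPKM in ΔM (0.481 to 0.762), a ratio of 1.27 with an interval from 0.910 to 1.80. It lies 255245 nt from *Osmr* on chromosome 15, with 0 protein-coding genes between the pair. *Osmr* (ENSMUSG00000022146, chr15:6763577-6824313, minus strand) was at 0.18 FPKM in WT (0.122 to 0.257) and 0.10 FPKM in ΔM (0.0558 to 0.165), about 30.1 and 14.8 fragments. It was the only one of the 8 genes with a lower value in ΔM. Its ratio of 0.556 had an interval from 0.282 to 1.08, so that a difference was not detectable at this depth. The summed fibroblast markers, given above, were also lower in ΔM (0.96 and 0.59 FPKM), but single markers differed in direction. *Col3a1* (0.30 and 0.09 FPKM), *Pdgfrb* (0.27 and 0.13), *Col1a1* (0.05 and 0.02) and *Col1a2* (0.20 and 0.18) were lower in ΔM. *Dcn* (0.09 and 0.10), *Thy1* (0.05 and 0.06) and *Pdgfra* (0 and 0.01) were higher. All these values are low, and any part of such cells in the *Osmr* value was not tested.

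**Figure D3:**
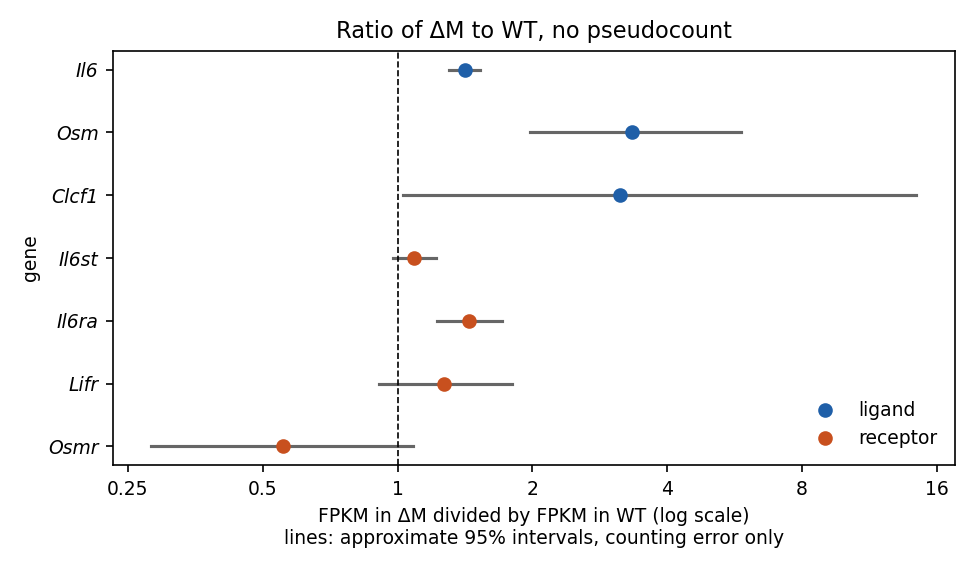
FPKM in ΔM divided by FPKM in WT on a logarithmic axis, with no pseudocount, for the 7 genes above the floor in at least 1 library. Ligands are blue and receptors orange, and lines are approximate 95% counting intervals. The intervals of *Il6*, *Il6ra* and *Osm* lie above 1, and those of *Il6st*, *Lifr* and *Osmr* include 1. That of *Clcf1* starts at 1.03 and rests on about 4.25 fragments in WT and 11.8 in ΔM, at the median transcript length.

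In WT the order of levels was *Il6*, *Il6st*, *Il6ra*, *Lifr*, *Osm*, *Osmr*, *Clcf1* and *Lif*. The intervals of the neighbors *Lifr* and *Osm* overlapped, as did those of *Osmr* and *Clcf1* and those of *Clcf1* and *Lif*. In ΔM the intervals of *Il6st* and *Il6ra* overlapped as well, *Osm* moved above *Lifr* with intervals apart, and *Clcf1* stood above *Osmr* with intervals that do. The 4 ligands summed to 35.4 FPKM in WT and 50.9 in ΔM, and the 4 receptors to 6.62 and 8.02 FPKM.

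Counted over the family, 3 of the 8 genes passed the minimum mean of 1 FPKM, namely *Il6*, *Il6ra* and *Il6st*. After adding 1 FPKM to both values, *Il6* and *Il6ra* were at least 25% higher in ΔM than in WT, as were 14.2% of all 8078 genes tested. None of the 3 was at least 25% higher in WT than in ΔM, as were 14.5% of all genes tested. At 2-fold, 0 of the 3 differed in either direction, against 1.19% of all genes tested that were higher and 1.32% that were lower in ΔM. With only 3 genes the share cannot be set firmly against this background. The median log2 ratio was 0.39 for the 3 genes and -0.00148 for the 8078 genes tested, so no rescaling was applied.

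**Figure D4:**
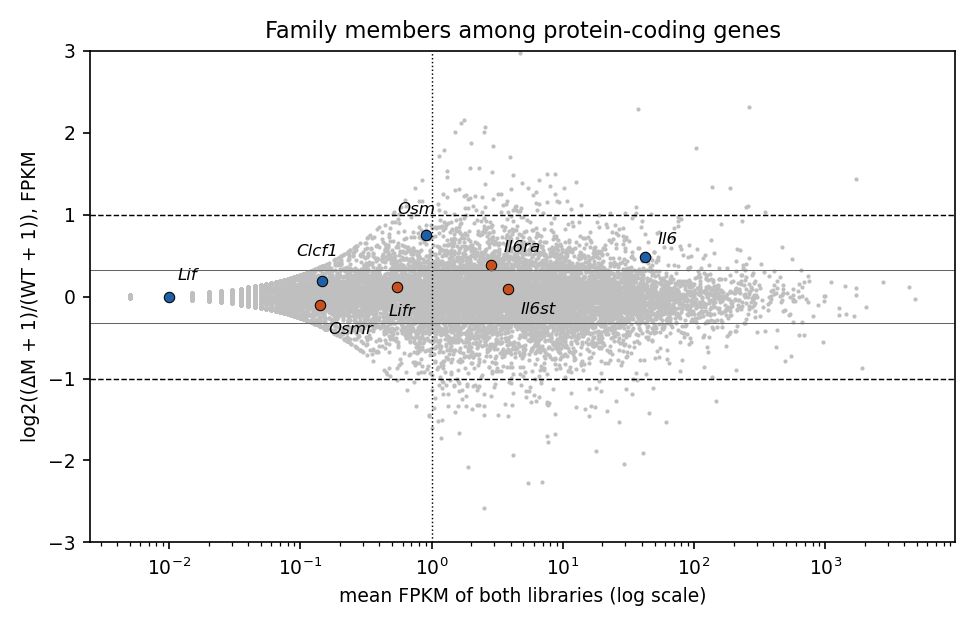
Log2 ratio of ΔM to WT after adding 1 FPKM against the mean FPKM of both libraries (logarithmic axis) for 17349 protein-coding genes (grey), of which 10 lie beyond the vertical axis, and the 8 family genes (ligands blue, receptors orange). The dotted line marks the minimum mean of 1 FPKM, grey lines a 25% and dashed lines a 2-fold difference. *Il6* and *Il6ra* lie above the upper grey line to the right of the minimum, and *Osm* lies above it to the left.

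The remaining genes of the pathway were taken from 8 lists by role, with 56 genes in all, of which 44 reached a mean of 1 FPKM. Of these 44, 7 were higher and 11 lower in ΔM by the 25% criterion used above, against 14.2% and 14.5% of all genes tested. The lower ones include *Zfp36*, the gene deleted in ΔM, whose direction was set by the design. The counts for single lists use the same criterion and are to be read beside the same shares. The median log2 ratio of the 44 genes was -0.03. In 6 of 8 other ligands the mean was below 1 FPKM, *Cntf* and *Il31* being listed at 0 in both libraries. The pair that passed encodes the 2 subunits of IL-27, a cytokine that also signals through gp130. *Il27* was at 107 FPKM in WT (102.9 to 110) and 270 FPKM in ΔM (263 to 276), a log2 ratio of 1.33. Its partner *Ebi3* differed in the other direction, with 77.0 FPKM in WT (74.1 to 79.9) and 48.5 FPKM in ΔM (46.1 to 51.0), a log2 ratio of -0.66. Among the 44 pathway genes that reached the minimum mean, and with 1 FPKM added, *Il27* alone was at least 2-fold higher in ΔM. Its mRNA level exceeded that of *Il6* in both libraries. Of the other receptors, *Il11ra1* alone passed the minimum, at 4.03 and 3.83 FPKM, and the receptor for IL-27, *Il27ra*, was at 0.59 FPKM in WT and at 0.43 in ΔM.

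Downstream of gp130, *Stat3* was abundant and nearly equal in both libraries, at 376 FPKM in WT and 374 in ΔM. The kinase gene *Jak2* was at 50.1 and 37.4 FPKM. Of the 8 genes in this list, 0 were higher and 2 lower in ΔM. *Socs3*, the feedback inhibitor that binds gp130, was at 114 FPKM in WT and at 137 in ΔM, a log2 ratio of 0.26. Among the 6 inhibitors tested 1 was higher and 1 lower, the lower one being the phosphatase gene *Ptpn6* at 678 and 410 FPKM. *Socs1*, a related inhibitor of Janus kinases, was at 9.58 and 11.1 FPKM.

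The 9 STAT3 target genes had a median log2 ratio of 0.06, with 2 higher and 0 lower. They include *Il1rn*, the IL-1 receptor antagonist, at 980 and 987 FPKM, and the IL-4 receptor gene *Il4ra*, which was at 470 FPKM in WT and at 647 in ΔM, a log2 ratio of 0.46. *Socs3* belongs to this list too. IL-6Rα can be released from the cell surface by proteases, which allows IL-6 to act on cells without the receptor. *Adam17*, one such protease, was at 156 FPKM in WT and at 97.8 in ΔM, whereas *Adam10*, another, was at 3.76 and 5.18 FPKM. *Rhbdf2*, which encodes a partner needed for ADAM17 maturation, was at 56.5 and 49.5 FPKM.

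Genes that act on *Il6* itself were described in the same way. Of the 8 transcription factors 2 were higher and 3 lower in ΔM, with a median log2 ratio of -0.13. The most abundant were *Atf3*, at 102 and 109 FPKM, *Nfkb1*, at 97.3 and 76.2 FPKM, and *Cebpb*, at 84.8 and 77.6 FPKM. Of the 8 mRNA regulators that passed the minimum, 0 were higher and 3 lower. These 3 were *Zfp36*, the deleted gene, *Rc3h2*, which encodes the decay factor Roquin-2, at 8.54 and 3.76 FPKM, and *Zc3h12a*, which encodes the endonuclease Regnase-1 that cleaves *Il6* mRNA, at 30.2 and 21.9 FPKM. The log2 ratio was -1.003 for *Rc3h2* and -0.44 for *Zc3h12a*. *Arid5a*, whose product stabilizes *Il6* mRNA, was at 53.7 and 51.7 FPKM. Both TTP relatives lay below the minimum mean, *Zfp36l1* at 0.35 FPKM in WT (0.234 to 0.504) and 0.99 FPKM in ΔM (0.774 to 1.248), and *Zfp36l2* at 0.71 (0.535 to 0.925) and 1.22 FPKM (0.972 to 1.51), with intervals that do not overlap in either case. The lower levels of *Zc3h12a*, *Rc3h2* and *Zfp36* and the higher ones of *Zfp36l1* and *Zfp36l2* accompany the higher *Il6* value in ΔM. Whether any of them has a part in the *Il6* value was not tested.

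**Figure D5:**
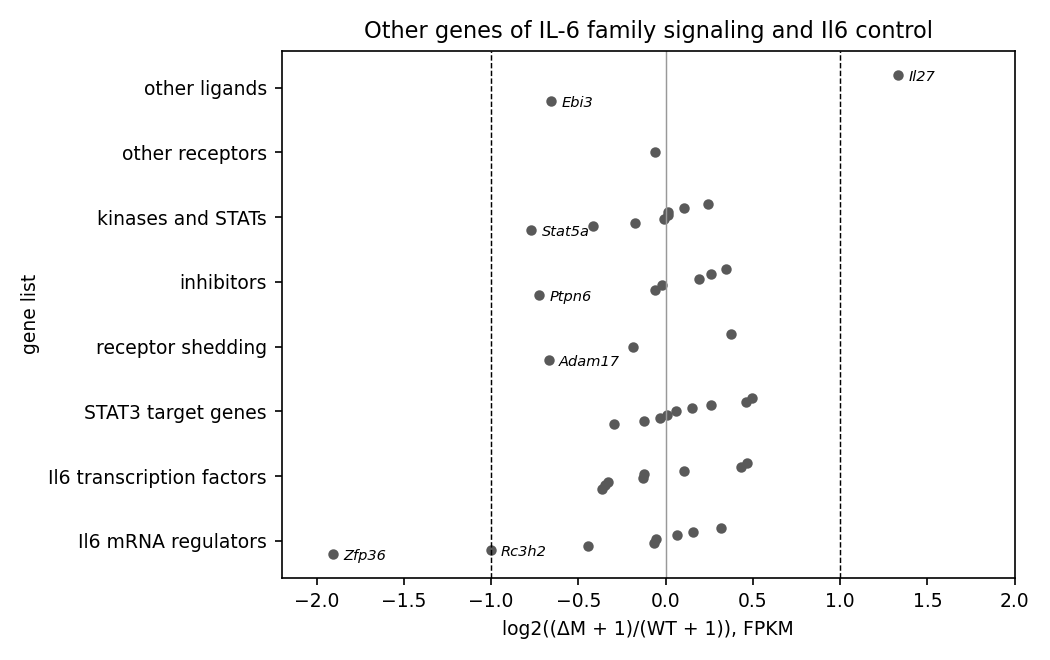
Log2 ratio of ΔM to WT after adding 1 FPKM for the pathway genes that reached a mean of 1 FPKM, 1 point per gene and 1 row per list, with *Socs3* drawn in both of its lists. Dashed lines mark a 2-fold difference. *Il27* at 1.33 and *Zfp36* at -1.90 lie beyond them, and *Rc3h2* at -1.003 lies on the lower one.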

How the data were processed

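The authors trimmed paired-end reads of rRNA-depleted, fragmented RNA, mapped them to mm9 with Segemehl, kept unique reads and obtained FPKMs with Cufflinks on Ensembl exons. The deposited FPKM table holds 1 value per gene and library, with 2 decimals. It has 37451 genes, 1 of them without a number in ΔM, and the name of the ΔM column has lost a character before the M. Of the genes, 37039 matched GENCODE M1 (NCBIM37), which supplied gene types, lengths and 3′ UTRs. Tests made for counts do not apply to FPKMs.

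Depth was estimated as the library size and average fragment length at which low FPKMs of single-transcript genes become whole multiples of 1 fragment. This held for 81.4% of 640 genes in WT and 82.9% of 738 in ΔM, where 9.52% and 9.53% would do so by chance. The estimate was tested on simulated data. Counting intervals (95%, exact Poisson for a level, exact binomial for a ratio) used these depths and, for each gene, its median transcript length. Such intervals are approximate and leave out the rounding of the values.

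Log2 ratios used a pseudocount of 1 FPKM and, for counts, a minimum mean of 1 FPKM. Named were all 8 members, and from the pathway lists genes at least 2-fold apart and the 3 most abundant of each list. A gene that this rule names is not reported here. *Il27ra*, *Cntf*, *Il31*, *Zfp36l1*, *Zfp36l2* and the cell type markers were named in addition, after their values were seen. The members, lists and thresholds were chosen with earlier results of these data known. Binding-site positions came from the study's list. Python 3.11.15, numpy 2.4.6, pandas 2.3.3, scipy 1.17.1 and matplotlib 3.10.9 were used.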

Additional observations from a re-analysis of the deposited data

How the results depend on the processing

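No paired analysis was possible because each genotype has 1 library, which also prevented leaving a library out. Of 106 recalculated values, 81 stayed within set limits and 25 moved. The limit was counting error for ratios and fragment numbers, and 1.5 times the original for counts of genes. For the median of the members it was the counting interval of *Il6ra*, and for that of the pathway genes a fixed margin. A change of pseudocount cannot turn the sign of a single ratio, whereas centring can. Direction was checked only for log2 ratios and medians that originally reached a 25% difference, and 0 of them reversed. *Il6*, *Il6ra*, *Il6st* and *Osmr* have 1 annotated transcript each, so their fragment numbers could not move. With a pseudocount of 0.1 FPKM the log2 ratio was 1.53 for *Osm*, 0.91 for *Clcf1*, 0.29 for *Lifr* and -0.49 for *Osmr*. With 5 FPKM it was 0.24 for *Osm* and 0.19 for *Il6ra*, the median of the 3 genes tested was 0.19, and 1 gene was at least 25% higher in ΔM. Both follow from the construction of the ratio, which damps low genes. Without a filter the median over 8 genes was 0.16, with *Lif*, which is below its floor, entered as 0, and a minimum mean of 10 FPKM left *Il6* alone, so that 1 gene was at least 25% higher. Centring on the median of the protein-coding genes changed no call. The length assumed for genes with several transcripts set the number of fragments, which for *Lifr* in WT ran from 45.7 to 163.7. The interval of its ratio, from 0.910 to 1.797 at the median length, began at 1.02 with the longest transcript. For *Clcf1* the shortest transcript left 3.17 fragments in ΔM, and no interval of the ratio was formed at that length. Depth limits *Lif*, *Clcf1*, *Osmr* and *Osm* most.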

Other observations

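The heptamer counts were set beside the ratios of all protein-coding genes with an annotated 3′ UTR whose mean reached 1 FPKM, after the values of the family had been seen. Of 249 genes with 3 or more heptamers, 24.1% were at least 25% higher in ΔM and 13.3% at least 25% higher in WT. Of 5779 genes without a heptamer, the shares were 13.4% and 14.6%. For the 1471 genes with 1 heptamer, as in *Il6*, the shares were 14.6% and 14.2%, and for the 432 genes with 2 they were 14.8% and 15.0%. At least 2-fold higher were 3.21% of the genes with 3 or more and 1.04% of those without. The median log2 ratio was 0.00843 in the former and -0.00583 in the latter. The differences between these groups of genes were not tested. Genes with 3 or more heptamers have longer 3′ UTRs (median 2944 nt against 762 nt) and a lower mean FPKM (median 4.90 against 6.86), and the part of both was not tested. *Osm* and *Clcf1*, with 3 and 4 heptamers, are too low to be among the genes counted.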
